A study of Mus musculus with 20 samples.

Results

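The genes described here are 35 fibroblast and extracellular matrix genes, taken as a list of names: 11 collagen chains, 13 matrix glycoproteins and microfibril proteins, 3 small leucine-rich proteoglycans, 3 lysyl oxidases and 5 receptors or surface and cell markers. No measured value entered the rule, but the list was chosen with earlier results of these data known. All 35 were found among the 45318 gene IDs of each table of counts, and 34 passed the filter on low counts together with 18698 genes in all. S100a4 did not pass.

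The series holds 20 mouse mammary libraries of polyadenylated RNA, all from the FVB strain. WT organoids (n = 3) are fragments of wild type gland grown for 6 days in Matrigel, a gel of basement membrane proteins, in medium containing FGF2, as were all other cultured organoids. MMTV-PyMT tumors, driven by the polyoma middle T antigen, were sampled as frozen sections (n = 3), as organoids at day 0 before any culture (n = 3), as organoids titled day 6 (n = 3), and as organoids whose titles give no day but whose labels state 6 days (n = 2, here undated). MMTV-Neu-NDL tumors, driven by an activated ErbB2 (Neu), were sampled as organoids after 6 days (n = 3). MMTV-Cre;Flox-Neo-Neu-NT tumors, in which Cre turns on another activated Neu, were sampled as sections (n = 3). The MMTV promoter acts mainly in mammary epithelium, so in each model the oncogene is placed in epithelial cells and not in fibroblasts. The labels give no ages and do not say whether replicates came from separate animals, so the spread behind each p-value is that of these samples and may be technical. Gene totals ran from 17478357 to 48341438 counts per library. Whole sections were set against cultured organoids in several comparisons, and tissue, culture and genotype then cannot be told apart.

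Fibroblasts secrete the fibrillar collagens, which assemble into stiff fibers in the stroma around the mammary ducts. Fibronectin, fibrillin and the microfibril proteins form finer networks, small proteoglycans such as decorin regulate the collagen fibers, and lysyl oxidases cross-link them. Tumor stroma is known for activated fibroblasts that carry markers such as Fap and the PDGF receptors, while several matrix genes, among them Fn1, Tnc and Sparc, can also be made by epithelial cells, above all by basal cells and by cells that have entered a mesenchymal state.

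Libraries that stand apart decide many of the values below. The library labelled PyMT day 6 replicate 3 was nearest to PyMT section replicate 3 over the 18698 genes (r = 0.991 across genes, which are not independent replicates), while its best match among the day 6 organoids reached 0.906. The pair differed by more than counting noise: the median scaled chi-square between them was 5.63, against 0.455 for sampling alone. Every pair of replicates within a group differed more, from 6.51 (Neu-NT replicates 1 and 2) to 67.4 (PyMT day 6 replicates 2 and 3). Over the 34 listed genes, the ratio of this library to that section ran from 0.562 (Col6a3) to 1.22 (Dpt), with a median of 0.844. Whether the title of this library, or that of the section, describes the material it was made from was not tested, and the day 6 and section values rest on the titles as given. Neu-NT section replicate 3 was also nearer to a PyMT section (replicate 1, r = 0.926) than to its own group (best r 0.909). Neu-NDL replicate 1 held the highest level of its group in 32 of the 34 listed genes. Over all 18698 genes it was nearest to replicate 2 of its own group (r = 0.960). Next came WT organoids replicate 3 (r = 0.956), ahead of Neu-NDL replicate 3 (r = 0.944), while Neu-NDL replicates 2 and 3 reached 0.974. It was singled out here by its levels of the listed genes, and their values without it follow in part from that choice. Results that rest on the divergent libraries are given with and without them.

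The RefSeq table holds a promoter window for 20 of the 35 genes. The 250 bases before the RefSeq start are printed for 3 of them, in build GRCm38.p6: Col1a2 and Col3a1, which encode chains of the stromal fibers and were below WT in 4 of the 5 PyMT libraries cultured for 6 days, and Tnc, which encodes tenascin-C and was above WT in all 5. They lie at chr6:4505368-4505617 on the plus strand, chr1:45311288-45311537 on the plus strand and chr4:64047016-64047265 on the minus strand, and each is written 5′ to 3′ toward the gene. Capitals mark matches on either strand to the motif TATAAA, the motif CCAAT, the motif GGGCGG, the motif TGANTCA or the motif CAGAC.
Col1a2: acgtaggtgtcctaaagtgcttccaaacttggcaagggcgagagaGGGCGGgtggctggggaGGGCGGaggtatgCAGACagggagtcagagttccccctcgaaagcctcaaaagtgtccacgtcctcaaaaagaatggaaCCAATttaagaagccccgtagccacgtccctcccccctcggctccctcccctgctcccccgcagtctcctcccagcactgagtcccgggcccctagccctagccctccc
Col3a1: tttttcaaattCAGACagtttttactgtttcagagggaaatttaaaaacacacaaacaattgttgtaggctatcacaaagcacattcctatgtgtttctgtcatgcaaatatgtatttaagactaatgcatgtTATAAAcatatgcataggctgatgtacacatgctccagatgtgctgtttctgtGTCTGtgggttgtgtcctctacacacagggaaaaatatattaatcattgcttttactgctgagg
Tnc: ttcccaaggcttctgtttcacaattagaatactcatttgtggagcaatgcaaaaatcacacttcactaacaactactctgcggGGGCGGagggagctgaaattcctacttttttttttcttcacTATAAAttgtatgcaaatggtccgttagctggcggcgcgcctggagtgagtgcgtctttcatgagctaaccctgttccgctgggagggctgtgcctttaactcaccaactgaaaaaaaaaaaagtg

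Col3a1 and Tnc both held TATAAA, at 117 and 126 bases before the start. This motif was not particular to the pair. TATAAA occurred in 4 of the 20 listed windows (Col3a1, S100a4, Thbs2 and Tnc) and in 13.0% of all 27025 windows. CCAAT was present in 2 of 20 (Col1a2 and Thbs2) against 34.5% of all windows. GGGCGG was found in 8 of 20 against 32.9%, CAGAC in 10 of 20 against 42.1%, and TGANTCA in 1 of 20 (Col6a1) against 6.87%. These are matches of letters, which describe the windows only.

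Levels are given in CPM, the reads of a gene scaled to a common library size. Set per kilobase of exon, the mean over the 20 libraries was highest for Sparc, at 139.7 CPM per kilobase, followed by Col1a1 (58.0), Fbln2 (54.2), Postn (48.7) and Col3a1 (42.5). Fap had the lowest mean of the 34 genes per kilobase, at 0.804. S100a4, a small calcium-binding protein often used to mark fibroblasts, lay between 0 and 0.525 CPM in the 20 libraries. Of its 584 exon bases, 302 are shared with Gm42674 on the same strand, so the table gives little information on this gene. Fbn1 shares 20.14% of its exon bases with Gm9913 on the opposite strand, and the strand setting of the counting is not given in the sources used here.

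**Figure D1:**
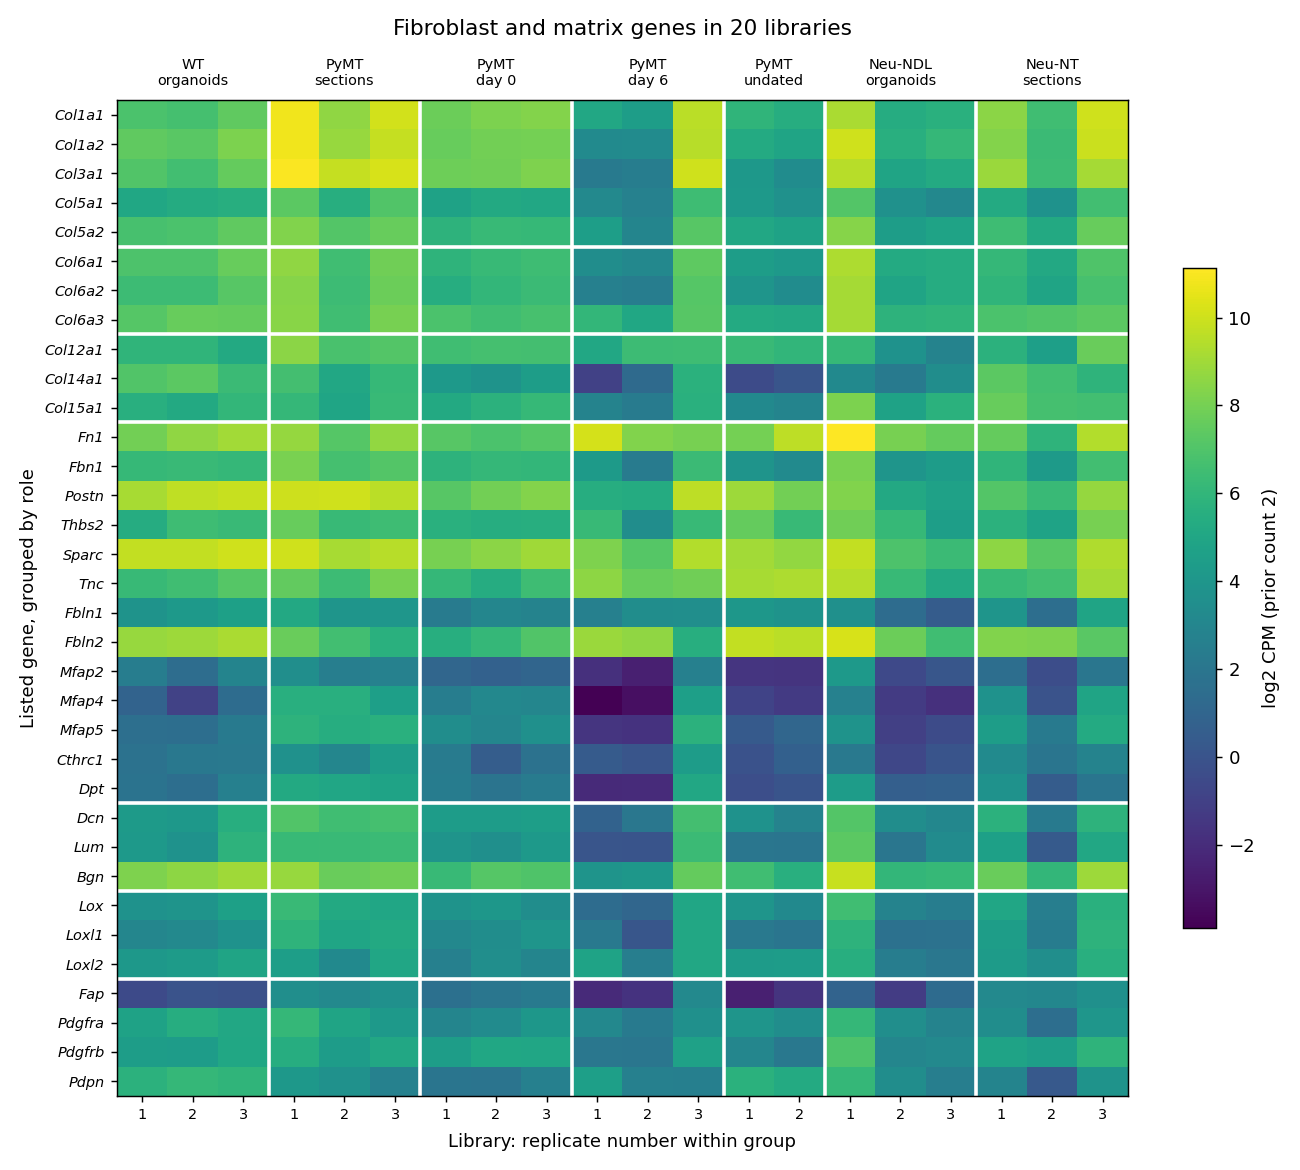
Levels of the 34 listed genes that passed the filter (vertical axis, grouped by role) in each of the 20 libraries (horizontal axis, by group and replicate), colored by log2 CPM with a prior count of 2. The library labelled PyMT day 6 replicate 3 and Neu-NDL replicate 1 stand out from the other replicates of their groups, and the other 6 day PyMT libraries are dark for Mfap2, Mfap4, Mfap5 and Dpt.

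Fibrillar collagens form the main stromal fibers: Col1a1 and Col1a2 encode type I, Col3a1 type III, and Col5a1 and Col5a2 type V. Col3a1 (chr1:45311538-45349706, plus strand, GRCm38) had the highest mean CPM of the 5. It stood at 134, 96.7 and 191 CPM in WT organoids, at 2094, 894 and 1166 in PyMT sections, and at 226, 238 and 299 in PyMT day 0 organoids. The day 6 organoids gave 4.88 and 5.43 CPM in replicates 1 and 2 and 1049 in the library labelled replicate 3, and the undated organoids gave 17.0 and 10.6. Neu-NDL organoids measured 743, 29.4 and 38.9 CPM, and Neu-NT sections 463, 83.05 and 556. Thus all 3 PyMT sections lay above all WT organoids, and 4 of the 5 PyMT libraries cultured for 6 days lay below them, with the remaining one in the range of the sections.

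The summed CPM of the 5 fibrillar genes showed the same order. It ran from 510 to 873 in WT organoids, from 1917 to 6105 in PyMT sections and from 729 to 994 in PyMT day 0 organoids. Among the PyMT libraries cultured for 6 days it was 81.6, 51.9 and 2759 in the day 6 set and 169 and 124 in the undated set. Neu-NDL organoids gave 2878, 155 and 194, and Neu-NT sections 1278, 305 and 2865. Summed levels in bulk RNA do not tell fewer fibroblasts from less RNA per fibroblast.

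**Figure D2:**
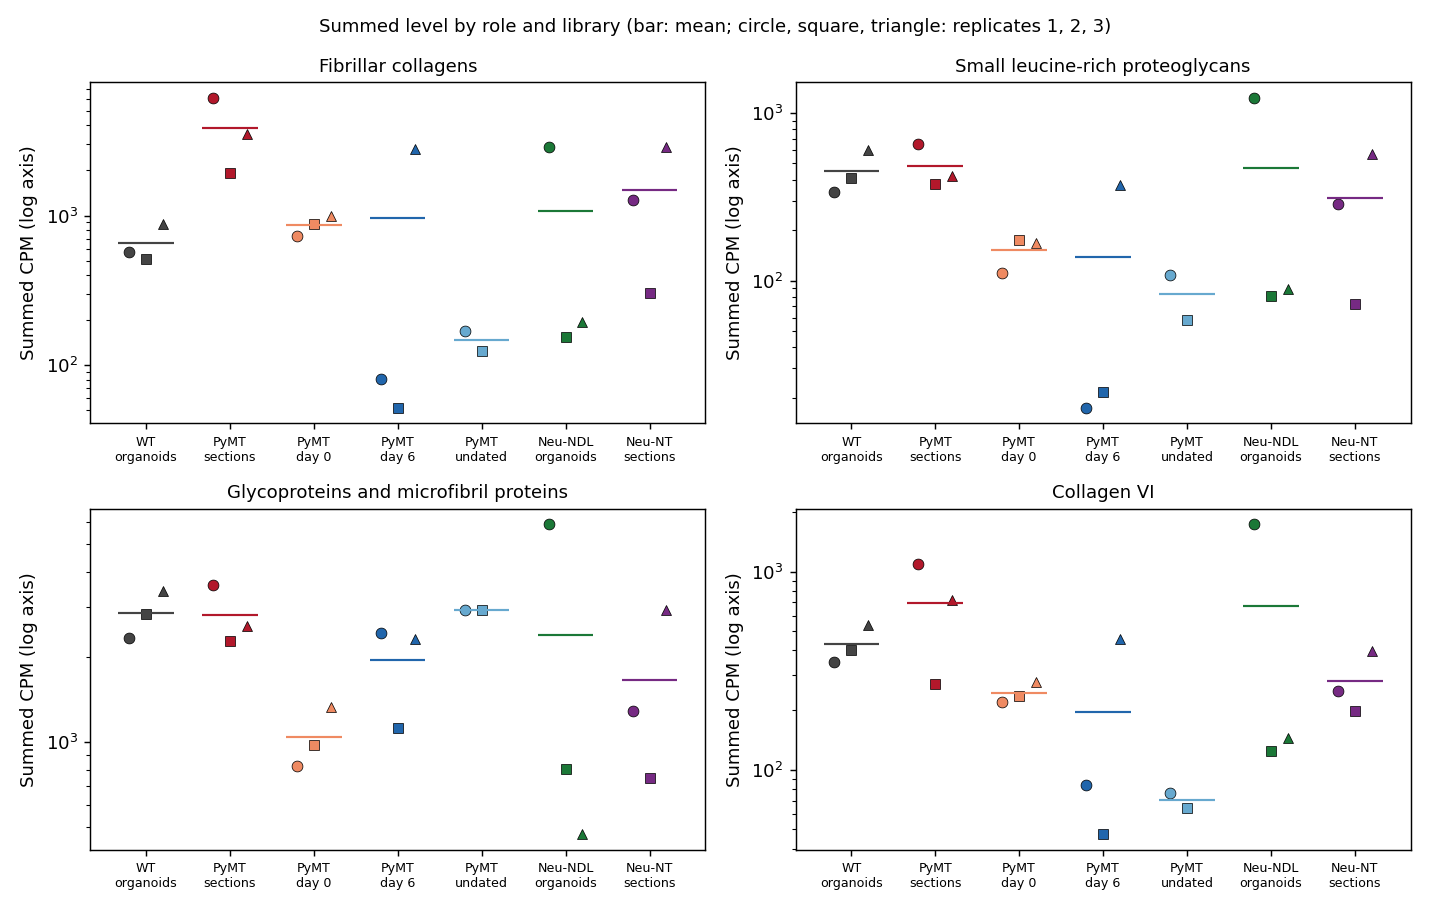
Summed CPM (vertical axis, log scale) of the genes of 4 roles in each library (points, with the replicate as the symbol) for the 7 groups on the horizontal axis; bars are group means. Fibrillar collagens span 51.9 to 6105, and the glycoproteins stay within 473 to 5882.

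Collagen VI, a beaded filament network close to cells, is encoded here by Col6a1, Col6a2 and Col6a3. Col6a3 measured 144, 198 and 191 CPM in WT organoids, 351, 93.5 and 263 in PyMT sections, and 116, 92.0 and 109 in day 0 organoids. In the 6 day PyMT libraries it was 66.5, 33.2 and 148 (day 6) and 39.7 and 35.6 (undated). Neu-NDL organoids had 559, 56.4 and 60.2 CPM, and Neu-NT sections 119, 133 and 164. Every collagen VI gene had its highest library in Neu-NDL replicate 1 and its lowest in PyMT day 6 replicate 2.

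The other collagens are Col12a1 and Col14a1, which decorate fibrils, and Col15a1, which links basement membranes to the stroma. Col12a1 was at 60.5, 62.3 and 37.8 CPM in WT organoids, 370, 114 and 140 in PyMT sections, and 91.7, 104 and 98.6 in day 0 organoids. Cultured PyMT organoids kept 34.9, 83.2 and 88.3 CPM (day 6) and 77.5 and 63.4 (undated). It read 72.9, 13.2 and 7.07 in Neu-NDL organoids, and 54.7, 24.4 and 204 in Neu-NT sections. Unlike Col3a1, Col12a1 in the undated organoids lay above every WT library.

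Among the glycoproteins, Sparc, a collagen-binding matricellular protein, was the most abundant listed gene. It measured 847, 846 and 1044 CPM in WT organoids, 1070, 578 and 740 in PyMT sections, and 267, 365 and 498 in day 0 organoids. Day 6 organoids gave 293, 142 and 683, undated organoids 531 and 420, Neu-NDL organoids 864, 122 and 81.8, and Neu-NT sections 388, 147 and 655. Its range over all 20 libraries was 81.8 to 1070, far narrower than that of Col3a1.

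In the cultured PyMT libraries whose fibrillar collagens were low, Fn1 (fibronectin), Tnc (tenascin-C) and Fbln2 (fibulin 2) were above all day 0 libraries. Tnc and Fbln2 were lower than this in Neu-NDL replicates 2 and 3, at 76.2 and 35.5 CPM (Tnc) and 213 and 92.0 (Fbln2). Fn1 was not set apart in this way, at 262 and 188 CPM in those Neu-NDL libraries and 255 and 789 in undated organoids. WT organoids had 241, 398 and 522 CPM of Fn1 and 448, 479 and 607 of Fbln2, overlapping the PyMT values. Tnc read 75.0, 92.0 and 141 CPM in WT organoids, 377, 196 and 235 in day 6 organoids, and 571 and 616 in undated organoids, so all 5 PyMT libraries at 6 days lay above all WT libraries. Fbln2 stood at 458 and 402 CPM in day 6 replicates 1 and 2 and at 45.5 in the library labelled replicate 3, close to the 50.8 of PyMT section replicate 3. Fn1 was at 1155, 310 and 261 CPM in day 6 organoids, against 151, 119 and 142 at day 0. Mfap4, a microfibril-associated protein, had 0 reads and 1 read in day 6 replicates 1 and 2, and 615 in the library labelled replicate 3.

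Bgn (biglycan) was the most abundant of the small leucine-rich proteoglycans, which also include Dcn (decorin) and Lum (lumican). It measured 301, 377 and 497 CPM in WT organoids, 441, 206 and 237 in PyMT sections, and 75.5, 141 and 127 in day 0 organoids. Its lowest values of the series, 14.7 and 16.6, were in day 6 replicates 1 and 2, beside 194 in the library labelled replicate 3 and 90.0 and 47.8 in undated organoids. Neu-NDL organoids had 932, 66.1 and 70.7, and Neu-NT sections 208, 66.9 and 483.

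The cross-linking enzymes Lox, Loxl1 and Loxl2 were less abundant. Lox stood at 13.8, 14.4 and 25.1 CPM in WT organoids, 76.8, 37.0 and 31.9 in PyMT sections, and 14.2, 16.4 and 10.9 in day 0 organoids. It read 2.60, 2.01 and 31.4 in day 6, 15.4 and 9.54 in undated, 91.1, 7.11 and 5.53 in Neu-NDL and 31.6, 5.63 and 50.1 in Neu-NT libraries. All 3 PyMT sections were above all WT and all day 0 libraries.

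Of the receptors and cell markers, Pdgfrb, a PDGF receptor shared by fibroblasts and pericytes, had the highest mean CPM. It measured 22.4, 20.9 and 33.5 CPM in WT organoids, 43.4, 20.9 and 34.97 in PyMT sections, and 22.1, 33.8 and 31.4 in day 0 organoids. Day 6 organoids gave 4.07, 3.996 and 25.8, undated organoids 8.05 and 4.27, Neu-NDL organoids 123, 8.01 and 9.14, and Neu-NT sections 27.9, 23.0 and 57.8. The PyMT sections, day 0 organoids and WT organoids overlapped for this gene.

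Within groups, the ratio of the highest to the lowest library, taken as a median over the listed genes, was 1.69 in WT, 2.58 in PyMT sections, 1.55 in day 0 and 1.36 in undated organoids. It was 16.1 in day 6 organoids, 14.3 in Neu-NDL organoids and 6.94 in Neu-NT sections. The library labelled day 6 replicate 3 was the highest of the 5 PyMT libraries at 6 days in 27 of 34 genes; the exceptions were Fn1, Thbs2, Tnc, Fbln1, Fbln2, Pdgfra and Pdpn. Other cell types moved with it: the summed CPM of 8 endothelial markers was 175 in it and 5.46 to 6.91 in the other 4, that of 8 macrophage markers 360 against 20.7 to 33.7, and that of 10 basal and myoepithelial markers 340 against 1817 to 7035. No endothelial or macrophage marker was at 0 in it. In Neu-NDL replicate 1, the endothelial sum was 49.97 against 8.38 and 6.14, and the skeletal muscle sum 144 against 20.6 and 1.80. The part of these cells in the listed genes' levels was not tested.

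The effect of 6 days of culture was examined in PyMT organoids, day 6 against day 0, with edgeR's quasi-likelihood test and Benjamini-Hochberg adjustment over all 18698 genes. None of the 34 listed genes was called in either direction, where the background was 0.166% of all genes called higher and 0.46% called lower. The median log2 fold change of the listed genes was 0.10, beside 0.04 over all genes. At an unadjusted p under 0.05, 3 listed genes were higher (8.75% of all genes) and 0 lower (6.32%), and DESeq2 also called 0. With the replicate number as a block, in a fit of these 6 libraries, 0 of all genes were called and the listed median was -1.49. The same 6 libraries without the block gave 0 genes higher and 4 lower, none of them listed.

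The library labelled day 6 replicate 3 decided this result. Without it, 9 listed genes were lower at day 6 and 0 higher, where 7.06% and 5.98% of all genes were called lower and higher, and the listed median was -2.55. The 9 were Mfap4, Col3a1, Mfap5, Dpt, Col1a2, Fap, Col14a1, Col6a2 and Col15a1. Col3a1 fell by 5.62 on the log2 scale (SE 1.34, adjusted p = 0.0137), Col1a2 by 4.54 (SE 1.31, adjusted p = 0.0353) and Fap by 4.25 (SE 0.70, adjusted p = 0.00171). In day 6 replicates 1 and 2, 25 of the 34 genes lay below all 3 day 0 libraries (26.8% of all genes), and Fn1, Tnc and Fbln2 lay above them (21.1% of all genes). Markers of other stromal cells were lower too: the endothelial sum was 5.64 and 5.46 CPM in these 2 libraries against 111 to 227 at day 0, and the macrophage sum 20.7 and 26.9 against 167 to 193. Their part in the listed genes' levels was not tested. Fn1, Tnc and Fbln2 were called neither without day 6 replicate 3 nor with all libraries. Their log2 fold changes with all libraries, that one included, were 2.07 (Fn1, SE 0.95, adjusted p = 0.317), 2.01 (Tnc, SE 0.90, adjusted p = 0.302) and 1.89 (Fbln2). Fbln2 was called higher with Neu-NT replicate 3 also left out (9.46% of all genes). All 3 were called higher with Neu-NDL replicate 1 left out too (10%), a set chosen after seeing the data.

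**Figure D3:**
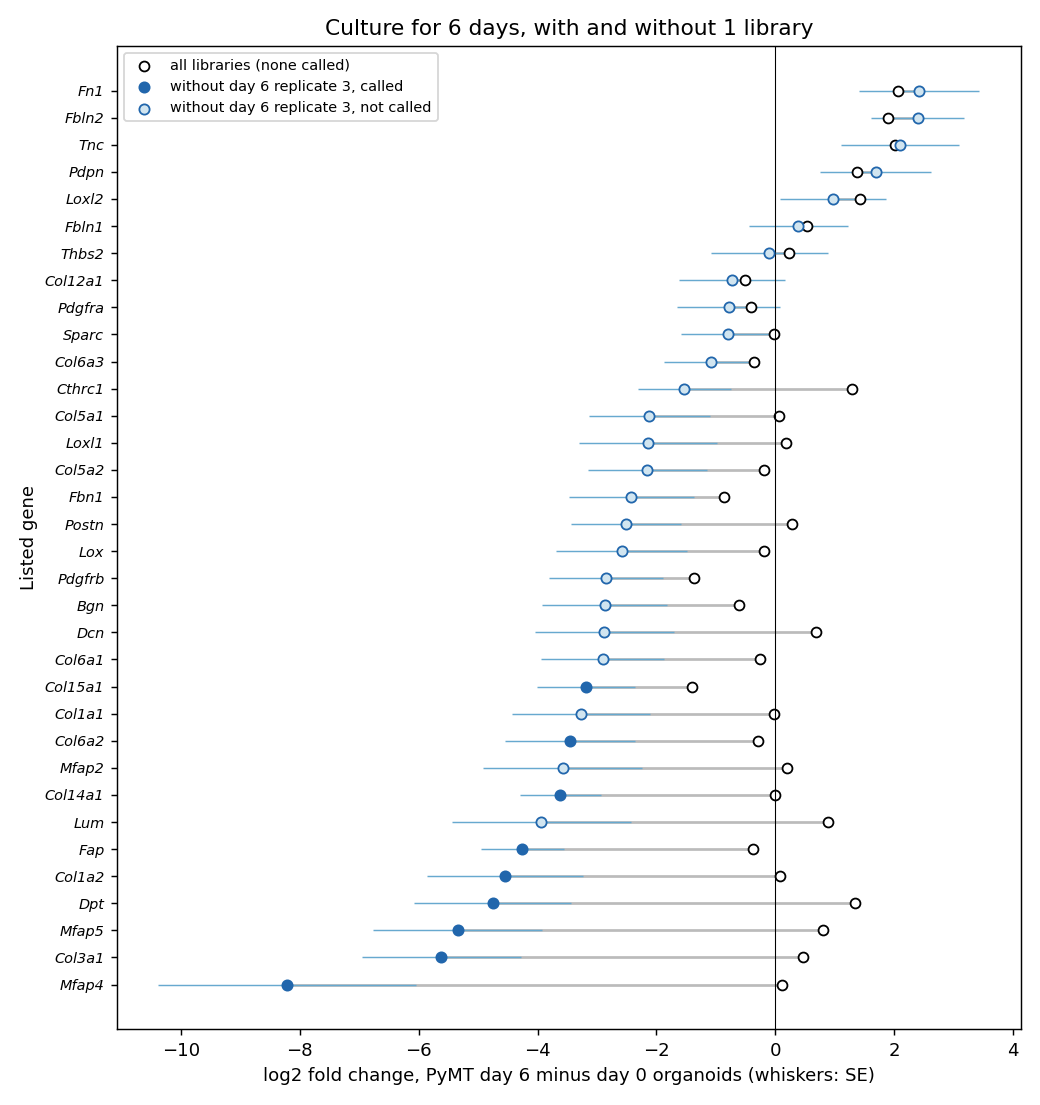
The log2 fold change of each listed gene (vertical axis) between PyMT day 6 and day 0 organoids (horizontal axis), from all libraries (open circles) and without the library labelled day 6 replicate 3 (blue, whiskers are 1 SE). The listed median moves from 0.10 to -2.55 and 9 genes are called; the value of Mfap4, with 0 and 1 reads in the remaining day 6 libraries, depends on the prior count of the fit.

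PyMT day 0 organoids, sampled before any culture, were set against PyMT sections. Organoid preparation was not separated from other differences between these samples. All 34 listed genes had a negative log2 fold change, from -2.82 (Dpt, dermatopontin, a small collagen-binding protein) to -0.10 (Col15a1), with a median of -1.75 beside -0.02 for all genes. None was called by edgeR's quasi-likelihood test, where 0.428% of all genes were called higher and 0.016% lower. In 27 of the 34 genes, all day 0 libraries lay below all sections, against 10.6% of all genes. The exceptions were Tnc, Loxl2, Fn1, Col6a3, Fbln2, Pdgfrb and Col15a1. At an unadjusted p under 0.05, 3 listed genes were lower (Cthrc1, Pdgfra and Fbln1) against 4.06% of all genes, and DESeq2 called 0.

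Fitted on these 6 libraries alone, the same comparison called 9 listed genes lower (Dpt, Col3a1, Mfap4, Lum, Dcn, Mfap5, Mfap2, Postn and Loxl1), where 0.519% of all genes were called lower. Other cell types differed as well between sections and day 0 organoids. The 8 macrophage markers summed to 397 to 598 CPM in sections and 167 to 193 at day 0, and the 8 adipocyte markers to 81.3 to 186 and 31.1 to 65.5. The endothelial sums overlapped, at 119.5 to 186 and 111 to 227. Their part in the listed genes' levels was not tested.

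Against WT organoids, PyMT sections showed 1 listed gene higher, Fap, and 0 lower, where 6.45% of all genes were called higher and 6.05% lower. Fap (fibroblast activation protein, a surface protease; chr2:62500943-62574075, minus strand) measured 0.620, 0.918 and 0.830 CPM in WT organoids and 11.5, 8.99 and 12.3 in PyMT sections, with no overlap. The difference on the log2 scale was 3.78 (SE 1.08, adjusted p = 0.0339). In 14 of the 34 genes all sections lay above all WT organoids, against 23.2% of all genes, and in 2, Pdpn and Fbln2, all lay below, against 23.1%. The 14 held the type I and III collagens, Col12a1, Fbn1, Mfap4, Mfap5, Cthrc1, Dpt, Dcn, Lum, Lox, Loxl1 and Fap.

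Among those that did not pass were Mfap4 (4.63, SE 1.82, adjusted p = 0.101), Mfap5 (3.84, SE 1.57, adjusted p = 0.114) and Col3a1 (3.30, SE 1.56, adjusted p = 0.168). The listed median was 0.78, beside 0.03 for all genes. Fitted on these 6 libraries alone, 14 listed genes were higher (14.7% of all genes) and 2 lower (14.2%). DESeq2 called 4 higher and 2 lower, where it called 11.2% of all genes higher and 8.72% lower. Fap was no longer called without any single WT library or without section replicate 1 or 3, with log2 fold changes of 3.63 to 3.91. Over its 14 alternatives the adjusted p ranged from 0.000199 to 0.11. Macrophage markers summed to 397 to 598 CPM in sections against 26.8 to 58.8 in WT organoids, and basal and myoepithelial markers to 343 to 529 against 2780 to 3509. The endothelial sums did not overlap either, at 119.5 to 186 against 12.6 to 61.7, with 8 of 8 markers positive and 0 called. Of 6 pericyte markers 1 was called higher, and of 8 adipocyte markers 7 were positive and 1 was called. The part of these cells was not tested.

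Neu-NT sections, against the same WT organoids, had Fap higher and Pdpn lower, where 10.5% of all genes were called higher and 8.47% lower. Fap measured 9.15, 8.25 and 12.3 CPM (log2 fold change 3.64, SE 1.07, adjusted p = 0.0271). Pdpn (podoplanin, a membrane mucin of basal epithelial cells, lymphatic endothelium and fibroblasts; chr4:143267431-143299564, minus strand) measured 53.9, 68.2 and 61.7 CPM in WT organoids and 7.22, 1.17 and 14.1 in Neu-NT sections. It fell by 3.03 on the log2 scale (SE 0.90, adjusted p = 0.0282), and the libraries did not overlap. PyMT sections, at 17.2, 13.0 and 6.38 CPM of Pdpn, also lay below all WT libraries, but that difference did not pass (-2.33, SE 0.87, adjusted p = 0.0872).

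The listed median in Neu-NT sections was 0.29, with 18 genes positive and 16 negative, beside 0.03 for all genes. Without Neu-NT replicate 3, which was the highest of its group in 29 of the 34 genes, the median was -0.48 and the same 2 genes were called. In that fit 10.9% of all genes were called higher and 10.9% lower. Fap was no longer called without any single WT library, and Pdpn without any single WT library or without Neu-NT replicate 1 or 2. Neu-NT basal and myoepithelial markers summed to 472 to 2050 CPM, below the 2780 to 3509 of WT organoids. Macrophage markers summed to 289 to 1131 against 26.8 to 58.8, with 6 of 8 called higher, and 2 of 6 pericyte markers were called higher. All 8 endothelial markers were positive with 0 called. The part of these cells in the Fap and Pdpn values was not tested. The 2 section comparisons share their WT libraries.

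**Figure D4:**
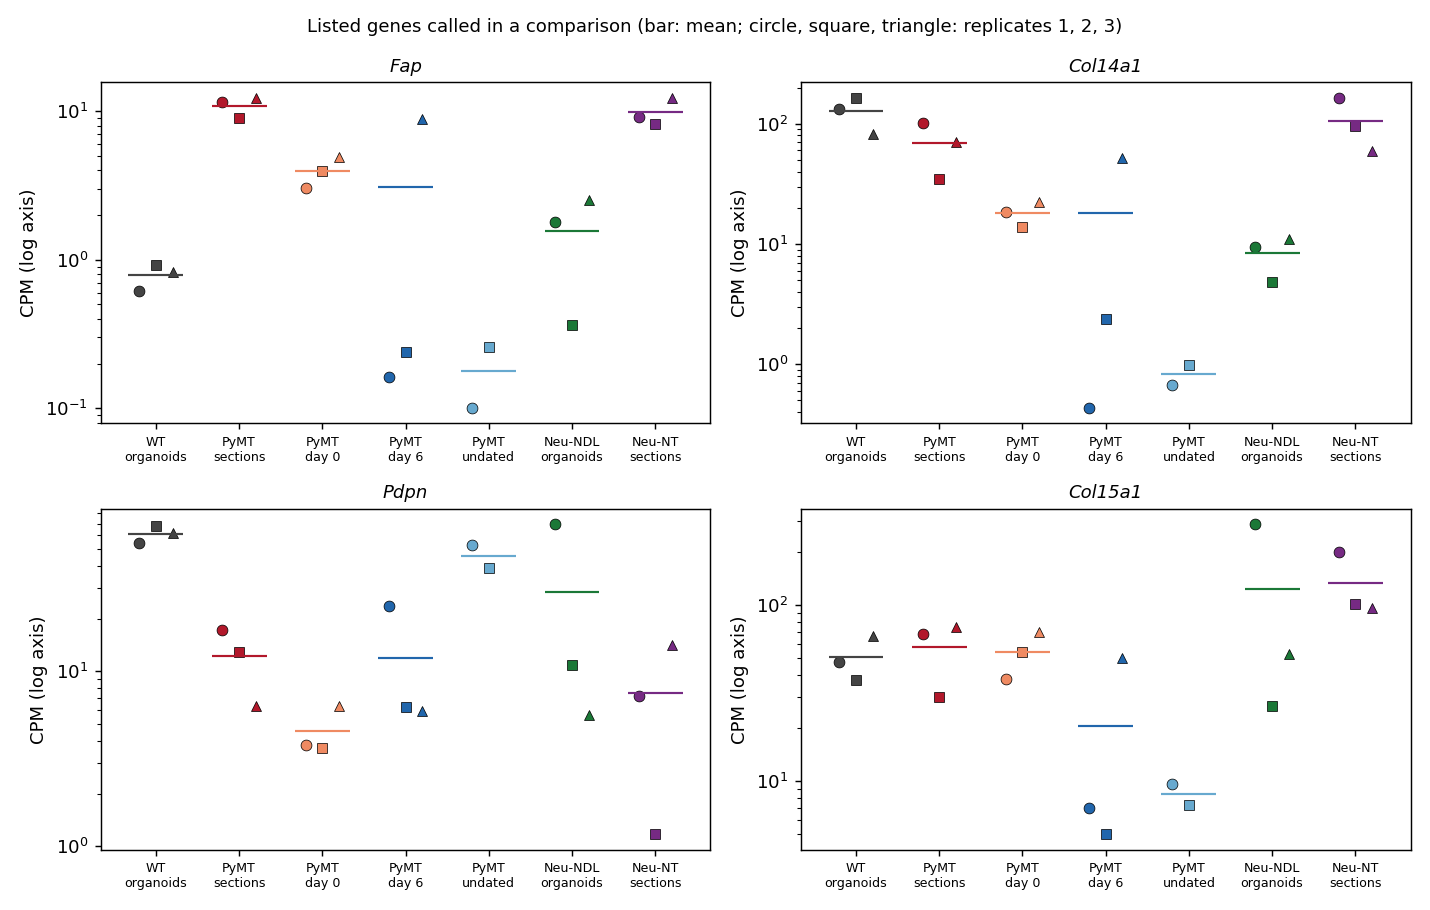
CPM (vertical axes, log scale) in each library of the 4 listed genes called in a comparison with all libraries, by group on the horizontal axis; symbols mark the replicate and bars the group mean. Fap separates sections (8.25 to 12.3) from WT organoids (0.620 to 0.918), and Col14a1 separates WT organoids (82.4 to 164) from Neu-NDL organoids (4.84 to 11.1).

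PyMT organoids after 6 days, as the mean of the day 6 and undated groups, had 1 listed gene lower than WT organoids and 0 higher, where 2.49% of all genes were called lower and 1.4% higher. This gene was Col14a1 (collagen XIV, a fibril-associated collagen; chr15:55307750-55520803, plus strand). It stood at 134, 164 and 82.4 CPM in WT organoids, at 0.434, 2.39 and 51.5 in day 6 organoids and at 0.671 and 0.995 in undated organoids. It fell by 5.03 on the log2 scale (SE 0.96, adjusted p = 0.0113), with every PyMT library below every WT library. At day 0 it had been at 18.4, 13.9 and 22.3 CPM. The call was lost without undated replicate 1 or replicate 2, and with the day 6 or the undated group alone, where the values were -2.80 and -7.25. It was also lost in a fit of only the libraries compared (adjusted p = 0.0767), which called Pdgfra lower and Tnc higher in its place. The listed median was -0.90, beside 0.01 for all genes.

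Without the library labelled day 6 replicate 3, 14 listed genes were lower than WT and 0 higher, where 6.93% and 3.91% of all genes were called, and the median was -2.18. They were Col14a1, Mfap2, Col3a1, Lum, Col6a2, Bgn, Col1a2, Dpt, Col6a1, Col15a1, Postn, Col5a2, Pdgfrb and Fap. Col3a1 fell by 4.06 (SE 0.92, adjusted p = 0.0148), Bgn by 3.58 (SE 0.82, adjusted p = 0.0155) and Lum by 3.91 (SE 1.10, adjusted p = 0.0351), all on the log2 scale. In those 4 libraries 25 of the 34 genes lay below all WT libraries (17.6% of all genes) and 1, Tnc, above (11.9%). The 8 not separated were Col12a1, Fn1, Thbs2, Fbln1, Fbln2, Mfap4, Lox and Loxl2. The endothelial sum was 5.46 to 6.91 CPM in these 4 libraries and 12.6 to 61.7 in WT organoids. In the comparison with all libraries, 5 of 10 basal and myoepithelial markers were called lower and 1 higher, and 7 of 8 adipocyte markers were negative with 0 called. The part of these cells was not tested.

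Neu-NDL organoids also had Col14a1 as the only listed gene called against WT organoids, where 2.06% of all genes were called lower and 2.47% higher. It measured 9.37, 4.84 and 11.1 CPM and fell by 3.91 on the log2 scale (SE 1.07, adjusted p = 0.0478), with no overlap. This call is at the edge of the threshold and was lost without any 1 of the 6 libraries, with values of -4.14 to -3.63. The listed median was 0.54, beside 0.02 for all genes. Neu-NDL replicate 1 was singled out by its high levels of these same genes, so lower values without it follow in part from that choice. Without it the median turned to -1.89, with 33 of 34 genes negative. Then Postn (periostin, -4.60, SE 1.19, adjusted p = 0.0337), Fbln1 (fibulin 1, -3.27, SE 0.75, adjusted p = 0.0207) and Sparc (-3.14, SE 0.65, adjusted p = 0.0136) were called lower, where 3.12% of all genes were. In Neu-NDL replicates 2 and 3, 29 of the 34 genes lay below all WT libraries (29.8% of all genes); the exceptions were Col15a1, Fn1, Thbs2, Tnc and Fap. Macrophage markers summed to 215 to 611 CPM in Neu-NDL organoids against 26.8 to 58.8 in WT, and basal and myoepithelial markers to 350 to 826 against 2780 to 3509, with 5 of 10 called lower. Their part in the listed genes' values was not tested.

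PyMT was compared with each Neu model in the same kind of material, Neu-NT as sections and Neu-NDL as organoids. In sections, PyMT against Neu-NT, 28 of the 34 genes were positive with a median of 1.02, beside -0.01 for all genes, and none was called by edgeR's quasi-likelihood test, where 4.57% of all genes were called higher and 5.13% lower. Without Neu-NT replicate 3, 31 of the 34 were positive with a median of 1.70, beside 0.07 for all genes. Again 0 were called, where 8.2% of all genes were called higher and 8.39% lower. In 9 genes all PyMT sections lay above all Neu-NT sections (14.5% of all genes): Col3a1, Fbn1, Postn, Mfap2, Mfap5, Dpt, Dcn, Lum and Pdgfra. Col15a1 lay below (12.9% of all genes), at 68.6, 30.0 and 75.6 CPM against 201, 102 and 96.6. All 5 skeletal muscle markers were positive with 1 called higher, their sum being 598 CPM in PyMT section replicate 2 and at most 9.53 in the other sections of either model. Adipocyte markers were positive in 7 of 8 with 0 called. The part of these cells was not tested. At an unadjusted p under 0.05 only Pdgfra was higher (12.6% of all genes). It was also the 1 listed gene that DESeq2 called, where DESeq2 called 7.73% of all genes higher. Its levels were 68.9, 29.4 and 17.9 CPM in PyMT and 11.2, 2.84 and 15.8 in Neu-NT sections.

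In cultured organoids, PyMT at 6 days against Neu-NDL, Col15a1 was lower and no listed gene was higher, where 4.7% of all genes were called lower and 2.42% higher. Col15a1 (collagen XV; chr4:47208161-47313167, plus strand) measured 6.998, 4.95 and 49.8 CPM in day 6, 9.53 and 7.26 in undated and 289, 26.7 and 52.8 in Neu-NDL organoids. It fell by 3.22 on the log2 scale (SE 0.75, adjusted p = 0.0215), though the libraries overlap. The listed median was -1.29, beside -0.02 for all genes. Both divergent libraries bear on this comparison: without the library labelled day 6 replicate 3, 19 listed genes were lower (10.6% of all genes), and without Neu-NDL replicate 1, 0 were lower and Fbln1, Col12a1 and Tnc were higher (1.92% of all genes), with medians of -2.68 and 0.97. The Col15a1 difference was -1.61 without Neu-NDL replicate 1 and was not called, nor was it without undated replicate 1 or 2. All 8 macrophage markers were negative with 5 called lower (median -3.22), and all 8 adipocyte and all 5 skeletal muscle markers were negative with 0 called. Their part in the Col15a1 difference was not tested.

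Ratios of counts within 1 library need no scaling between libraries. Type I collagen is built from the chains of Col1a1 and Col1a2. The Col1a1 to Col1a2 count ratio was 0.614 to 0.670 in WT organoids and 0.914 to 1.23 in PyMT sections, with no overlap, and 1.09 to 1.28 in day 0 organoids. No test was run on it. It read 3.63, 2.17 and 1.05 in day 6 and 1.60 and 1.55 in undated organoids. Neu-NDL organoids, at 0.566, 0.897 and 0.714, spanned the WT range, and Neu-NT sections lay at 1.09 to 1.13. The Col3a1 to Col1a1 ratio was 0.139 and 0.243 in day 6 replicates 1 and 2 and 0.235 to 0.277 in undated organoids, against 0.940 to 1.14 in WT and 0.847 to 1.03 in day 0 organoids. The library labelled day 6 replicate 3 had 1.39. Within collagen VI, Col6a3 to Col6a1 was 5.98 and 3.81 in day 6 replicates 1 and 2 and 0.954 to 1.61 in WT organoids, while Col6a2 to Col6a1 ran only from 0.551 to 0.970 over all 20 libraries. The undated organoids, at 1.80 and 1.92 for Col6a3 to Col6a1, lay within the day 0 range of 1.21 to 1.99, and Neu-NT section replicate 2 reached 3.64. The fibrillar ratios thus differed from WT and day 0 organoids in 4 PyMT libraries cultured for 6 days, and the collagen VI ratio in only 2 of them was above both.

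**Figure D5:**
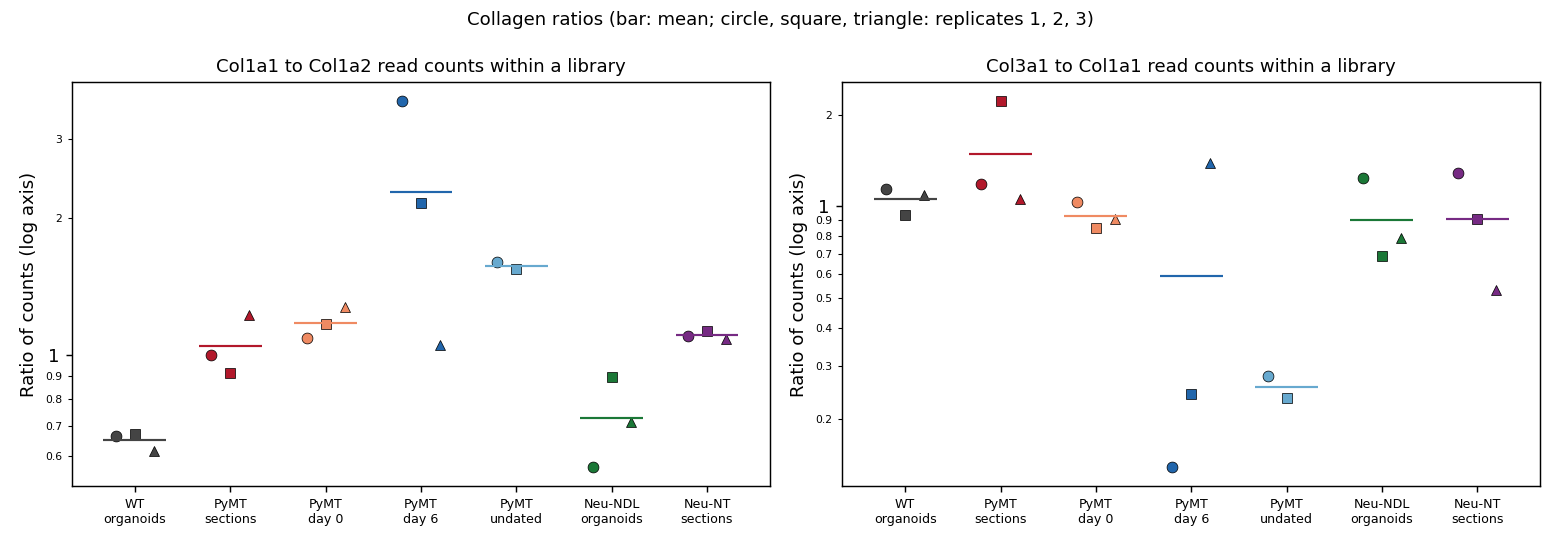
Ratio of read counts within each library (vertical axes, log scale) for Col1a1 to Col1a2 and for Col3a1 to Col1a1, by group on the horizontal axis; symbols mark the replicate and bars the group mean. The first ratio is 0.614 to 0.670 in WT organoids and 1.55 or more in the 4 PyMT libraries cultured for 6 days other than the library labelled day 6 replicate 3.

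Genes that process and export collagen were counted as a separate list of 20, which includes the prolyl hydroxylases and lysyl hydroxylases. In PyMT sections against WT organoids 3 were lower and 1 higher, where 6.05% of all genes were called lower and 6.45% higher, and the fibrillar collagens had positive values. P4ha2 (prolyl hydroxylase subunit) fell by 2.49 on the log2 scale (SE 0.61, adjusted p = 0.0197), P4ha1 by 2.25 (SE 0.52, adjusted p = 0.0155) and Plod1 (lysyl hydroxylase) by 2.05 (SE 0.53, adjusted p = 0.0241). Mia3, which exports procollagen from the endoplasmic reticulum, was higher by 0.95 (SE 0.27, adjusted p = 0.0339). P4ha1 levels were 139, 163 and 189 CPM in WT organoids, 30.8, 37.2 and 35.2 in PyMT sections, and 249, 145 and 33.4 in day 6 organoids, so the library labelled day 6 replicate 3 again read like a section. Neu-NT sections had only Plod1 lower than WT (8.47% of all genes), and PyMT against Neu-NT sections had Bmp1 and Crtap lower (5.13% of all genes).

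Of 16 basement membrane genes, which epithelial cells also make, 1 was called in Neu-NDL and 1 in Neu-NT samples against WT, and 0 in either PyMT comparison with WT. With 2.47% of all genes called higher in Neu-NDL and 8.47% lower in Neu-NT samples, 1 of 16 is near the background. Npnt (nephronectin, an integrin ligand) was higher in Neu-NDL organoids by 2.32 (SE 0.52, adjusted p = 0.0231), and Agrn (agrin) fell in Neu-NT sections by 1.11 (SE 0.35, adjusted p = 0.0363). Between models, Lamb2 was lower in PyMT than in Neu-NT sections (5.13% of all genes). In PyMT than in Neu-NDL organoids, Lamb2 and Npnt were lower (4.7% of all genes) and Col18a1 higher (2.42%). Of 12 further fibroblast genes, 11 passed the filter. In PyMT sections 4 of the 11 were higher than in WT organoids, where 6.45% of all genes were: Clec3b (6.72, SE 1.62, adjusted p = 0.0185), Ogn (5.25, SE 1.35, adjusted p = 0.0232), Pi16 (4.85, SE 1.35, adjusted p = 0.0318) and Col8a1 (3.16, SE 0.76, adjusted p = 0.0186). Of the 11, 7 were positive and 4 negative, down to -1.70, with 0 called lower. In Neu-NT sections Clec3b and Col8a1 were higher (10.5% of all genes) and Osr1 was lower (8.47%), with 6 positive and 5 negative. Twist2, a transcription factor of mesenchymal cells, was lower in the 6 day PyMT organoids than in WT organoids (-3.17, SE 0.84, adjusted p = 0.0463) and than in Neu-NDL organoids.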

How the data were processed

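The listed genes and the further lists were chosen with earlier results of these data known. Per the submitters' processing notes, the authors used CASAVA, FastQC, STAR, HTSeq and DESeq2 with the mouse build mm10; versions, annotation and strand setting are not given in the sources used here. The deposited values are raw counts of reads per gene, 1 table per library; reads on no gene (5.6 to 12.33%) or ambiguous (4.68 to 7.39%) were left out of the totals. Names, positions and exon lengths came from GENCODE M21, which matched 44671 of 45318 IDs, and promoters from RefSeq.

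A single edgeR 4.0.16 quasi-likelihood fit under R 4.3.3, after filterByExpr and with TMM factors, gave each group its own mean, used the robust option, covered all 20 libraries and left 13 residual degrees of freedom and a common dispersion of 0.193. On counts simulated for Neu-NDL against WT organoids in 16439 genes, a fit of those 6 libraries called 61 of 100 genes set at a log2 change of 2 and 53 of 100 set at -2, with median estimates of 2.04 and -1.99, and 5 unchanged genes. A gene was called where p, after Benjamini-Hochberg adjustment over 18698 genes, was under 0.05. Standard errors were obtained from each estimate and the root of its F value. CPM are computed from the counts on TMM-scaled totals. Library totals of 17478357 to 48341438 counts set the precision. Values in every library are given for the listed gene with the highest mean CPM of each role and for called genes; other genes are examples of their role. Sharing of replicate numbers was checked by correlating deviations from group means over genes. The values were highest between the PyMT organoids of day 6 and of day 0 (r 0.287, 0.428 and 0.317). PyMT day 6 and Neu-NDL replicate 2 gave 0.275. Only equal replicate numbers were correlated and the labels state no pairing, so whether the numbers pair samples remains unsettled. The blocked values of day 6 against day 0 are given. Alternatives were DESeq2 1.42.0, its size factors, no filter, a replicate block, only the libraries compared, the PyMT sets alone, Neu-NT replicates 1 and 2 summed, and libraries left out; leaving out 3 libraries together was chosen after seeing the data.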

Additional observations from a re-analysis of the deposited data

Results flagged for a closer look

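Col15a1 differed between the PyMT and Neu-NDL models, as cultured organoids, in its difference from the shared WT organoids: the test of that difference gave a log2 value of -3.22 (adjusted p = 0.0215, edgeR's quasi-likelihood test). It was -1.61 and not called without Neu-NDL replicate 1, which held 289 CPM against 26.7 and 52.8 in the other Neu-NDL libraries.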

How the results depend on the processing

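Counts of listed genes called varied with single libraries and with which libraries entered the fit. With 1 library left out at a time, the genes called lower ranged from 0 to 14 for PyMT 6 day organoids against WT, from 0 to 3 for Neu-NDL against WT, from 0 to 9 for day 6 against day 0 and from 0 to 19 for PyMT against Neu-NDL organoids, where those called higher ranged from 0 to 3. For PyMT sections against WT, genes higher ranged from 0 to 1, and for Neu-NT sections both directions ranged from 0 to 1. Neither of the other comparisons of sections had a call when 1 library was left out.

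Percentages here give the share of all genes called. Next, the library labelled day 6 replicate 3 and Neu-NT replicate 3 were left out. PyMT 6 day against WT then had 16 lower (9.04%), and Neu-NDL against WT 2 lower (6.12%). PyMT sections against WT had 6 higher (14.2%) and 2 lower (12.9%), and Neu-NT against WT 1 higher (14.7%) and 2 lower (14.3%). Day 6 against day 0 had 1 higher (Fbln2, 9.46%) and 10 lower (9.36%). PyMT against Neu-NT sections had 1 higher (11.7%), and PyMT against Neu-NDL organoids 22 lower (13.5%). With Neu-NDL replicate 1 left out too, PyMT 6 day against WT had 1 higher (8.16%) and 26 lower (11.2%). Neu-NDL against WT had 21 lower (10.1%). PyMT sections against WT had 13 higher (16.1%) and 2 lower (13.5%), and Neu-NT sections 3 higher (16.2%) and 6 lower (15.5%). Day 6 against day 0 had 3 higher (Fn1, Tnc and Fbln2, 10%) and 22 lower (11.1%). PyMT against Neu-NT sections had 16 higher (13.6%) and 1 lower (12.3%), and PyMT against Neu-NDL organoids 7 higher (9.73%) and 9 lower (13%). Day 0 against sections had 4 lower (0.616%).

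Percentages again give the share of all genes called. With only the libraries compared, PyMT 6 day against WT had 1 higher (Tnc, 1.02%) and 1 lower (Pdgfra, 2.55%). Col14a1 was no longer called there. PyMT sections had 14 higher (14.7%) and 2 lower (14.2%), and Neu-NT sections 3 higher (9.74%) and 1 lower (8.97%). Day 0 against sections had 9 lower (0.519%), and PyMT against Neu-NDL 0 lower (0.0408%). The replicate block in that fit gave 0 lower for PyMT 6 day (0.999%), and 13 higher (12.3%) and 2 lower (11.7%) for PyMT sections. Neu-NT sections had 1 higher (5.52%) and 0 lower (4.88%). Day 0 against sections had 4 lower (0.108%), and PyMT against Neu-NDL 0 lower (0%). With the block, the Neu-NDL median against WT turned to -0.70. The labels do not state that replicate numbers pair the samples. For day 6 against day 0, the block changed no call of a listed gene. DESeq2 gave 2 lower for PyMT 6 day (4.84%), and 4 higher (11.2%) and 2 lower (8.72%) for PyMT sections. Neu-NT sections had 0 higher (14.1%) and 1 lower (10.5%). PyMT against Neu-NT sections had 1 higher (7.73%), and PyMT against Neu-NDL 8 lower (8%). Without the filter on low counts, Neu-NDL had 0 lower (0.914%), PyMT sections 0 higher (2.35%) and Neu-NT sections 1 higher (4.71%) and 0 lower (4.24%). With Neu-NT replicates 1 and 2 summed, Neu-NDL had 0 lower (1.98%), and Neu-NT had 1 higher (8.14%) and 0 lower (5.06%). The day 6 or the undated set alone gave 0 lower against WT (1.5% and 0.214%) and against Neu-NDL (0.433% and 1.61%). No called gene changed direction in these alternatives. Scaling by RLE moved the median of all genes by at most 0.026. Fits of fewer libraries also changed the genes tested, the scaling and the residual degrees of freedom, and the cause was not tested.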
